A study of Mus musculus with 36 samples.

Results

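The Sox genes of neural progenitors and neural crest, Sox1, Sox3, Sox4, Sox9, Sox10, Sox11 and Sox21 (7 genes), were followed across 36 microarrays of mouse epiblast stem cells (EpiSC). They are 7 of 19057 genes named on the array. All probes carrying their symbols were taken, which gave 15 of the 45281 probes on the array. Of these 15 probes, 13 passed the filter on dim probes (detection p under 0.05 on at least 3 of the 36 arrays), among 23999 probes that passed in all. The 2 probes that did not pass were both of Sox11, ILMN_1251337, detected on 1 array, and ILMN_2643394, detected on 0 arrays. The probes of Sox1 and Sox10, the second of Sox3 and Sox9 and the last of Sox21 were detected on 0 of 13 arrays without retinoic acid and passed through the other arrays. Counts over the probes that passed are therefore given as a description, and so are the p-values of these probes for retinoic acid against none.

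EpiSC are pluripotent cells derived from the epiblast of the mouse embryo, here grown on Matrigel in medium conditioned by mouse embryonic fibroblasts (MEF) with bFGF and Activin. Total RNA was hybridised to 1-colour Illumina bead arrays. The schedules differed in the time with retinoic acid (RA, 5 µM) and, with it, in the time of the second treatment. On the no RA arrays, cells had Mock for 36 h and a second treatment for 24 h, with 1 array for each of 10 compounds, 1 with Mock and 2 with CM. On the RA 24 h arrays, cells had RA for 24 h and a second treatment for 36 h, with 1 array for each compound, 1 with Mock and 1 with CM. On the RA 36 h arrays, cells had RA for 36 h and a second treatment for 24 h, with 1 array for each compound and 1 with Mock. Mock and CM are the labels' words and are not spelled out there. The compounds were the mTOR inhibitor Rapamycin (100 nM), the focal adhesion kinase inhibitor PF573228 (250 nM), the BMP receptor and AMPK inhibitor Dorsomorphin dihydrochloride (2 µM), the NF-kB pathway inhibitor BAY 11-7082 (25 µM), the adenylyl cyclase activator Forskolin (50 µM), the calcium chelator BAPTA-AM (10 µM), the microtubule stabiliser Docetaxel (500 pM), the phosphoinositide kinase inhibitor Wortmannin (50 nM), the Smoothened agonist Purmorphamine (2 µM) and the FGF receptor inhibitor SU5402 (2 µM). The labels do not say which arrays came from separate cultures, so p-values measure the spread between these arrays, which may be technical.

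Sox genes encode transcription factors that bind DNA through an HMG box and fall into groups by sequence. Sox1 and Sox3 (group SoxB1) keep neural progenitors undifferentiated, and Sox21 (SoxB2) acts against SoxB1 factors and favours neuronal differentiation. Sox4 and Sox11 (SoxC) act in progenitors and newly formed neurons, while Sox9 and Sox10 (SoxE) act in glia and neural crest, Sox9 also in cartilage. RA is a vitamin A derivative that acts through nuclear receptors and patterns the hindbrain and spinal cord.

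In mouse assembly GRCm38.p6 (RefSeq), Sox1 lies at chr8:12395519-12399555, Sox3 at chrX:60891366-60893430, Sox4 at chr13:28948919-28953699 and Sox9 at chr11:112782210-112787757. Sox10 lies at chr15:79154913-79164490, Sox11 at chr12:27334268-27342718 and Sox21 at chr14:118233233-118237030. RefSeq promoters were at hand for 4 of the 7 genes, Sox1, Sox4, Sox11 and Sox21. The 250 bases before the start are printed for Sox21, which differed most between schedules, and for the SoxC pair Sox4 and Sox11. They are at chr14:118237031-118237280, chr13:28953700-28953949 and chr12:27342719-27342968, all on the minus strand, written 5′ to 3′ in gene orientation, with AGGTCA (the half-site of retinoid receptors) and CCAAT in capitals on either strand (ATTGG is CCAAT on the other strand).
Sox21: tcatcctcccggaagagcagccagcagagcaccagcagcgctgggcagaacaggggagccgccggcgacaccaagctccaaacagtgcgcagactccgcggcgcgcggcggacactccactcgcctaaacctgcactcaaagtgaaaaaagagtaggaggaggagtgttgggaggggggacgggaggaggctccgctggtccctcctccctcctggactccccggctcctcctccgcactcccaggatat
Sox4: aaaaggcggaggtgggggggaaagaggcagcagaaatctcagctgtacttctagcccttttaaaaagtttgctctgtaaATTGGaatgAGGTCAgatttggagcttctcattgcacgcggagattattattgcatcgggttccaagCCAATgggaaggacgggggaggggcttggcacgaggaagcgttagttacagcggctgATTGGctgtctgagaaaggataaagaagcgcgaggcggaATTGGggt
Sox11: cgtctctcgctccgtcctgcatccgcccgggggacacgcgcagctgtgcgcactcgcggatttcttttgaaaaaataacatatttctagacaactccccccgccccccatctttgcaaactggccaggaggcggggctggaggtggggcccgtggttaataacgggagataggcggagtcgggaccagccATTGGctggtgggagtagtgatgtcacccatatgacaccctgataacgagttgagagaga
AGGTCA was found once in Sox4, with its first base at -162, and not in the windows of Sox1, Sox11 and Sox21. It was found, on either strand, in 14% of 32851 such windows. Direct repeats of it with 5 or 2 bases between were in 0 of the 4 windows and in 0.00913% of all windows each. CCAAT was found 4 times in Sox4, once each in Sox11 and Sox1 and not in Sox21, and in 33.8% of all windows. The motifs were chosen with the sequences in view, and none of them overlap each other here.

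Before the Sox genes, the labelled cell type was set against its markers. Of 10 EpiSC marker genes, 9 were detected on at least 1 no RA array, and Pou5f1, Nanog, Fgf5 and Otx2 on all 11 compound and Mock arrays without RA. Against no RA, 8 of the 10 were lower on RA 36 h arrays and 1, Sox2, was higher (29% and 26% of all tested probes). The largest falls were those of Otx2 (-5.71 ± 0.252), Nanog (-5.45 ± 0.174) and Fgf5 (-5.34 ± 0.178). Of the 8, Tdgf1 was detected on 0 of the 11 arrays of either RA schedule and passed the filter through arrays without RA. The summed marker level ranged from 37304 to 51640 on no RA arrays, from 3525 to 10011 on RA 24 h arrays and from 4310 to 6426 on RA 36 h arrays (linear normalised intensity). Between 37.1% and 43.1% of probes were detected on an array, and mean raw intensity ranged from 336 to 692.5.

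With RA, Sox21 was 28.8-fold higher after 36 h than without, the largest change among the 7 genes, and Sox10 came from below detection to a level detected on every RA array. Sox9 rose by 1.21 on the log2 scale, Sox4 and Sox11 rose by less than that, Sox1 stayed near the detection limit, and Sox3 did not pass the test. Levels are log2 intensities after background correction and quantile normalisation, and the 11 arrays of a schedule with the 10 compounds and Mock were set against each other. Each gene is led by its brightest tested probe. Levels of different probes are not comparable with each other, so only changes are set side by side. Fewer cells of a type and less RNA per cell cannot be told apart in these bulk samples.

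Of the SoxB2 gene Sox21, the leading probe ILMN_1254295 had a lowest, median and highest level of 6.85, 7.68 and 9.20 without RA, of 10.55, 11.41 and 12.62 with RA for 24 h, and of 12.30, 12.40 and 13.13 with RA for 36 h. All RA arrays were above all arrays without RA. Sox21 rose by 4.85 ± 0.199 (log2, SE) with RA for 36 h, a 28.8-fold difference (adjusted p = 1.78e-17, limma with Benjamini-Hochberg adjustment over 23999 probes). With RA for 24 h it rose by 3.96 ± 0.191, or 15.6-fold (adjusted p = 7e-16, limma). The second probe, ILMN_3163306, was 4.27 ± 0.176 higher at 36 h and 3.34 ± 0.168 higher at 24 h. The dimmest Sox21 probe, ILMN_2721489, was detected on 0 of 11 arrays without RA, on 1 of 11 at 24 h and on 8 of 11 at 36 h. It was at least 1.2-fold higher with RA for 36 h than without (adjusted p = 6.39e-09, limma), a bound set by the detection limit of each array, which lay between 5.06 and 5.39. For RA 24 h, the change of this probe, 0.20 ± 0.108, did not pass the test (adjusted p = 0.116, limma).

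Of the SoxE genes, Sox10, a gene of migrating neural crest and its glial and pigment lineages, was detected on all 23 RA arrays and on 0 of 13 arrays without RA. On the compound and Mock arrays its level was 4.68 ± 0.103 without RA, below the detection limit, 6.57 ± 0.39 at 24 h and 6.88 ± 0.28 at 36 h (mean and SD, n = 11 each). The lowest RA array stood at 5.99 and the highest array without RA at 4.90. The difference was at least 3.02-fold with RA for 36 h (adjusted p = 5.79e-16, limma) and at least 2.43-fold for 24 h (adjusted p = 5.27e-15, limma). The probe passed the filter through RA arrays, so these p-values are a description. The fitted changes, 2.24 ± 0.109 and 1.97 ± 0.104, are no bound because one side is below detection.

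Sox9, a gene of neural stem cells, premigratory crest and cartilage, was detected on every array. Its leading probe ILMN_2778151 had a lowest, median and highest level of 6.21, 6.83 and 7.80 without RA, of 7.89, 8.54 and 9.0 at 24 h, and of 7.80, 8.09 and 8.43 at 36 h. The lowest RA array, BAPTA-AM at 36 h, and the highest array without RA, Rapamycin, did not overlap but met after rounding. Sox9 rose by 1.21 ± 0.128 with RA for 36 h (adjusted p = 6.15e-09, limma) and by 1.66 ± 0.123 for 24 h (adjusted p = 6.64e-12, limma). Its dim second probe ILMN_3007428 was detected on 0 of 11 arrays without RA, 9 of 11 at 24 h and 2 of 11 at 36 h. That probe was at least 1.07-fold higher with RA for 24 h (adjusted p = 8.31e-06, limma). For 36 h its adjusted p was 0.031 (limma) and its level allowed no bound above 1.

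Of the SoxC genes, Sox4 had a lowest, median and highest level of 10.17, 10.46 and 10.65 without RA, 10.65, 10.77 and 11.42 at 24 h, and 10.99, 11.25 and 11.35 at 36 h (probe ILMN_2727116). The RA 36 h arrays lay above all arrays without RA, and the RA 24 h arrays overlapped them at 10.65. Sox4 rose by 0.79 ± 0.0796 with RA for 36 h (adjusted p = 1.95e-09, limma) and by 0.43 ± 0.0762 for 24 h (adjusted p = 2.41e-05, limma). The second Sox4 probe, ILMN_2893417, much nearer the detection limit with levels from 4.78 to 6.73, did not show this: its changes were 0.04 ± 0.164 (adjusted p = 0.836) and -0.06 ± 0.157 (adjusted p = 0.745). For Sox4 the rise therefore rests on 1 probe.

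Sox11 had a lowest, median and highest level of 11.78, 12.04 and 12.16 without RA, 12.22, 12.29 and 12.43 at 24 h, and 12.25, 12.48 and 12.83 at 36 h (probe ILMN_1235647). No RA array overlapped an array without RA. The rise was small, 0.51 ± 0.0598 at 36 h (adjusted p = 3.74e-08, limma) and 0.34 ± 0.0572 at 24 h (adjusted p = 1.07e-05, limma). The second bright probe, ILMN_2616196, was 0.41 ± 0.0874 higher at 36 h (adjusted p = 0.00027), and its change of 0.13 ± 0.0837 at 24 h did not pass (adjusted p = 0.172).

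Of the SoxB1 genes, Sox1, the earliest restricted marker of the neural plate, was detected on 0 of 11 arrays without RA, 8 of 11 at 24 h and 7 of 11 at 36 h (probe ILMN_2739469, its only probe). Its level was 4.74 ± 0.161 without RA, 5.43 ± 0.508 at 24 h and 5.24 ± 0.268 at 36 h (SD, n = 11 each). The RA arrays overlapped those without RA. Sox1 was at least 1.1-fold higher with RA for 24 h (adjusted p = 1.33e-05, limma). For 36 h the adjusted p was 0.000957 (limma) with the RA mean near the detection limit, which allowed no bound above 1.

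Sox3, expressed in epiblast and neural plate, was detected on every array and was the member whose leading probe did not pass the test in either RA schedule. Its lowest, median and highest levels were 5.98, 6.35 and 6.95 without RA, 5.96, 6.42 and 7.12 at 24 h, and 5.41, 6.16 and 6.75 at 36 h (probe ILMN_1245319), and the groups overlapped throughout. Its change was -0.25 ± 0.128 for RA 36 h (95% interval -0.52 to 0.01, adjusted p = 0.097; with median scaling -0.34, adjusted p = 0.0169, and called lower) and 0.08 ± 0.123 for RA 24 h (interval -0.18 to 0.33, adjusted p = 0.606). Without the Docetaxel arrays, Sox3 was also called lower with RA for 36 h. The second Sox3 probe, ILMN_2976077, dim and detected on 9 of 36 arrays, was higher at 24 h (adjusted p = 0.00922, limma) with no bound above 1.

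**Figure D1:**
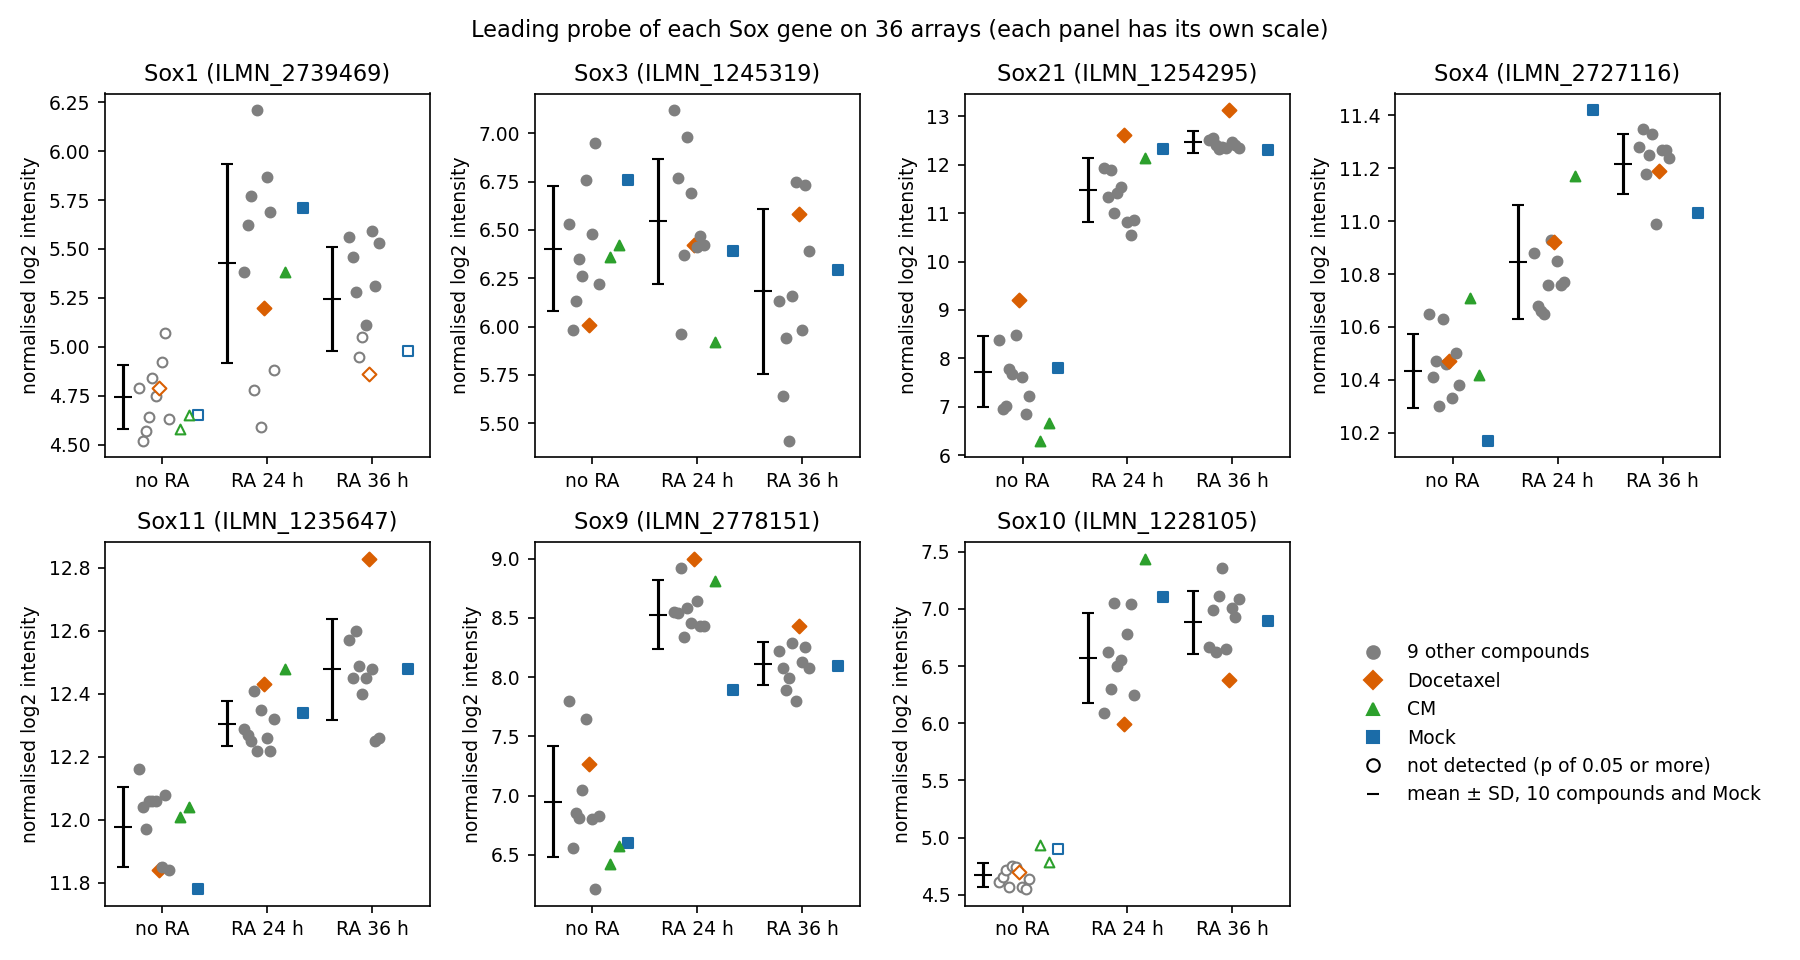
Each point is 1 of 36 arrays, plotted as normalised log2 intensity of the leading probe of a Sox gene in 3 schedules, with open points where the probe was not detected and bars for the mean and SD of the 10 compound arrays and Mock. Sox21 lies between 6.85 and 9.20 without RA and between 12.30 and 13.13 with RA for 36 h on those 11 arrays, Sox10 is not detected without RA, and the Sox3 groups overlap.

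Counted over leading probes, 6 of the 7 genes were higher and 0 lower with RA for 36 h, where 26% of all tested probes were higher and 29% lower (55% in either direction). The median change of the 7 genes was 0.79, also with Sox1 and Sox10 at their bound, beside -0.03 for all probes. With RA for 24 h, 6 of 7 were higher and 0 lower (28.3% and 32% of all probes, 60.2% in either direction), with a median of 0.70, or 0.43 with the bounds, beside -0.02. The 11 arrays did not overlap for 5 of the 7 genes at 36 h (8.5% of all probes did not overlap and were higher) and for 4 of 7 at 24 h (6.83%). Both RA schedules were set against the same arrays without RA. On the Mock arrays alone, 1 array a schedule with the spread taken from the other arrays, 5 of 7 genes, all but Sox1 and Sox3, were higher with RA for 36 h (6.02% of all probes) and 4 of 7, without Sox11, for 24 h (6.85%).

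**Figure D2:**
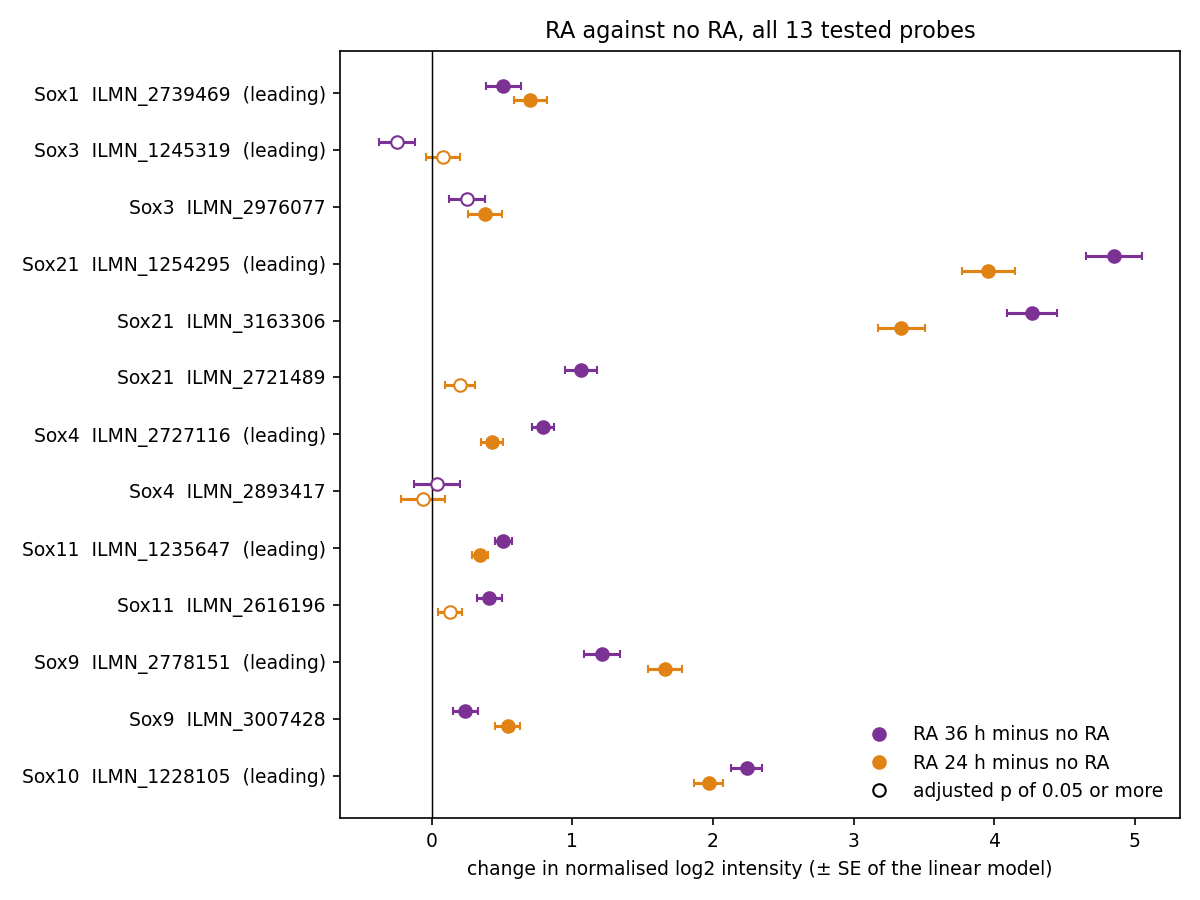
Changes in normalised log2 intensity with their SE for the 13 tested probes, RA 36 h minus no RA in purple and RA 24 h minus no RA in orange, with open points where the adjusted p was 0.05 or more. Sox21 stands apart at 4.85 and 3.96 on its leading probe, and both intervals of the second Sox4 probe span 0.

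Slide and RA schedule were largely tied, since 5 of 6 slides held arrays of 1 schedule. The slide that held 2 schedules had 5 RA 36 h compound arrays and the no RA Mock array. RA and compound therefore cannot be told apart on that slide, and its group without RA is 1 array. There the changes were 4.74 for Sox21, 1.91 for Sox10, 1.54 for Sox9, 1.02 for Sox4, 0.67 for Sox11, 0.63 for Sox1 and -0.27 for Sox3. That Mock array was the lowest of the 11 compound and Mock arrays without RA for Sox4 (10.17) and for Sox11 (11.78). Slide was also taken as a fixed block, with both RA schedules as 1 term against no RA. The changes were then 6.16 for Sox21, 2.42 for Sox10, 1.70 for Sox9, 1.18 for Sox4, 0.88 for Sox11, 0.64 for Sox1 and -0.60 for Sox3. Slides with 1 schedule cannot separate RA from slide, so this term rests on the same slide and its 1 no RA array. The RA 24 h arrays enter only through the treatment terms, so it is not a separate check and says nothing of RA 24 h. The size of the changes of Sox10, Sox9 and Sox1 depended on the scale: in the authors' deposited log2 values, Sox10 was 0.36, Sox9 0.42 and Sox1 0.06 higher with RA for 36 h, while Sox21 was 3.58, Sox4 0.72 and Sox11 0.51 higher.

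Markers of other cell types were measured beside these changes. The summed level of 9 fibroblast or feeder markers ranged from 877 to 1508 on no RA arrays, from 741 to 1876 on RA 24 h arrays and from 1158 to 2156 on RA 36 h arrays, with Postn detected on 0 and Lum on 1 of 36 arrays. That of 10 endoderm markers ranged from 602 to 924, from 820 to 1623 and from 1226 to 1765 in the same order. That of 9 mesoderm markers ranged from 301 to 495, from 336 to 1039 and from 455 to 550, with Mesp1 and Hand1 detected on 0 arrays. That of 7 trophoblast markers ranged from 228 to 468, from 391 to 1326 and from 486 to 627. With RA for 36 h, where 26% of all tested probes were higher and 29% lower, 5 of 7 tested fibroblast markers were higher, led by Col1a2 (3.24 ± 0.162), Col1a1 (1.71 ± 0.186) and Col3a1 (at least 1.21-fold), and Thy1 was lower (-2.78 ± 0.17). Of 9 tested endoderm markers 4 were higher, led by Sox7, Gata6 (1.68 ± 0.148) and Dab2 (1.5 ± 0.102), and Foxa2 (-1.26 ± 0.157) and Apoa1 (-0.90 ± 0.193) were lower. Of 6 tested mesoderm markers Meox1 (at least 4.22-fold) and Bmp4 (0.43 ± 0.134) were higher, and Mixl1 (at least 1.98-fold) and Tbx6 (-0.46 ± 0.15) lower. Of 5 tested trophoblast markers Gata3 (2.17 ± 0.126) and Tfap2c (0.50 ± 0.143) were higher. Of the markers that were higher, Col3a1, Sox7 and Meox1 were detected on 0 of the 11 arrays without RA and passed the filter through RA arrays. Col1a2 was detected on 4 and Gata3 on 6 of those 11, so the sizes of their changes rest in part on undetected levels. The part of these cell types in the levels of the Sox genes was not tested.

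The 2 RA schedules were then compared with each other, which also compares 36 h with 24 h of the second treatment. With RA for 24 h, Sox9 was 0.45 ± 0.128 and Sox3 0.33 ± 0.128 higher than with RA for 36 h (adjusted p = 0.00689 and 0.0447, limma). Sox21 was lower by -0.89 ± 0.199 (adjusted p = 0.000952), Sox4 by -0.36 ± 0.0796 (0.000746), Sox10 by -0.27 ± 0.109 (0.048) and Sox11 by -0.16 ± 0.0598 (0.0312), and Sox1 did not pass (0.19 ± 0.123, 0.236, all limma). In all, 2 of 7 genes were higher and 4 lower (19.8% and 17.6% of all probes, 37.4% in either direction), and the arrays overlapped for all 7. All 3 Sox21 probes were lower, by -0.93 ± 0.176 and -0.86 ± 0.113 on the other probes, and both tested Sox11 probes and both Sox9 probes kept the direction of their gene. The second Sox4 probe had a mean of 5.62 at 24 h and 5.76 at 36 h, lower in 7 of 11 pairs of the same treatment. For the second Sox3 probe the means were 5.11 and 5.00, and 5 of 11 pairs were higher. On their leading probes, Sox21 and Sox4 were each lower with RA for 24 h in 10 of 11 pairs. Mock was the exception, with Sox21 at 12.33 at 24 h and 12.30 at 36 h, and Sox4 at 11.42 at 24 h and 11.03 at 36 h. With slide as a random block, which does not separate slide from schedule here, only Sox21 and Sox4 of the 7 passed. Without the Rapamycin, the PF573228 or the Wortmannin arrays 3 of the 7, Sox21, Sox4 and Sox9, passed. Sox10 also missed the threshold without any 1 of 5 other treatments (adjusted p up to 0.139), Sox3 without BAY 11-7082 or Forskolin (up to 0.126), and Sox11 without Dorsomorphin dihydrochloride or Docetaxel (up to 0.0751).

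Within the RA 24 h schedule, the 10 compounds as a class were set against Mock. Mock is 1 array, its spread is taken from the other arrays, and it is the array just given as the exception, so the values below are not independent of that one. For Sox4 the lowest, highest and mean levels were 10.65, 10.93 and 10.79 with the compounds, against 11.42 with Mock, a difference of -0.64 ± 0.136 (adjusted p = 0.00376, limma). All 10 compound arrays were below Mock. Sox4 was the 1 of 7 genes that passed (1.72% of all probes were higher and 1.73% lower, 3.45% in either direction). The second Sox4 probe did not share this, with a mean of 5.65 with the compounds, against 5.33 with Mock. Sox21 had 10.55 to 12.62 with the compounds, against 12.33 with Mock, and 9 of the 10 compound arrays, all but Docetaxel, were below it; the difference of -0.93 ± 0.57 did not pass (interval -2.09 to 0.23, adjusted p = 0.537). Sox9 went the other way, with 8.34 to 9.0 with the compounds and 7.89 with Mock, a difference of 0.70 ± 0.319 that did not pass (adjusted p = 0.31).

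Set against CM in the same schedule, again 1 array with its spread taken from the other arrays, Sox10 was the 1 of 7 genes that passed (3.82% of all probes were higher and 3.54% lower, 7.36% in either direction). It had 5.99 to 7.05 with the compounds, against 7.44 with CM, a difference of -0.92 ± 0.276 (adjusted p = 0.0334, limma), which was -0.24 in the authors' deposited log2 values. Sox4 had 11.17 with CM, above all 10 compound arrays, and its difference of -0.38 ± 0.136 did not pass (adjusted p = 0.0896).

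In the RA 36 h and no RA schedules, 0 of 7 genes passed for compounds against Mock (0.00417% and 0.342% of all probes in either direction, and without RA 0.146% higher and 0.196% lower, limma). At an unadjusted p under 0.05, 0 and 1 of the 13 probes differed, and the share of all probes at that p was not counted. With RA for 36 h, Sox4 was 0.20 ± 0.136 above Mock. The difference between the schedules, RA 24 h minus RA 36 h, was -0.84 ± 0.192 for Sox4 (adjusted p = 0.0188, limma), which rests on 1 Mock array in each schedule, that of RA 24 h being the exception named above. It was the 1 of 7 genes that passed (0.567% of all probes were higher and 0.525% lower, 1.09% in either direction). For Sox21 that difference was -1.12 ± 0.807 (interval -2.76 to 0.52, adjusted p = 0.666). With each array scaled to its median in place of quantile normalisation, which moved the median of all probes for compounds against Mock at 24 h to 0.17 from 0.02, the Sox4 results were -0.43 (adjusted p = 0.481) and -0.45 (adjusted p = 0.52) and no longer passed.

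Each compound was then compared with Mock across the 3 schedules, 3 arrays against 3, in a model with schedule and treatment. All comparisons share the 3 Mock arrays. None of the 7 genes passed for any of the 10 compounds (adjusted p of 0.356 or more, limma), where 0.0792% of all probes passed for Docetaxel and 0% for each other compound. At an unadjusted p under 0.05, 4 of the 13 probes differed for Docetaxel, 2 for Rapamycin, 2 for Purmorphamine and 0 for each other compound. The share of all probes at that p was not counted, and some genes have several probes, so these counts are a description. In simulated data of this design, a change was added to 200 probes drawn from all 23999. For Docetaxel, 78% of changes of 1 log2 unit and 6% of changes of 0.5 were found. These are shares over all tested probes and not over the Sox genes. The simulated noise was independent between arrays, without correlation within a slide. In the data 19 probes passed for Docetaxel, fewer than the 200 planted, so the shares found may be too high for these data. The SE of Sox21 was 0.387, and how often a change of that gene would be found was not tested.

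Docetaxel gave the highest Sox21 level among the compounds and Mock in each schedule. Its arrays stood at 9.20 without RA, 12.62 at 24 h and 13.13 at 36 h, against 7.80, 12.33 and 12.30 with Mock. The change over the schedules was 0.84 ± 0.387 (interval 0.05 to 1.64, adjusted p = 0.52, limma) and did not pass, and it was 0.56 without the no RA arrays and 1.12 without the RA 24 h arrays. Against the mean of the other 9 compounds, Sox21 was 1.24 ± 0.289 higher with Docetaxel and did not pass either (adjusted p = 0.0687, limma). On the second probe Docetaxel had 6.17, 9.72 and 10.20, against 5.35, 9.5 and 9.34 with Mock. There Rapamycin, at 6.38, was higher than Docetaxel without RA.

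**Figure D3:**
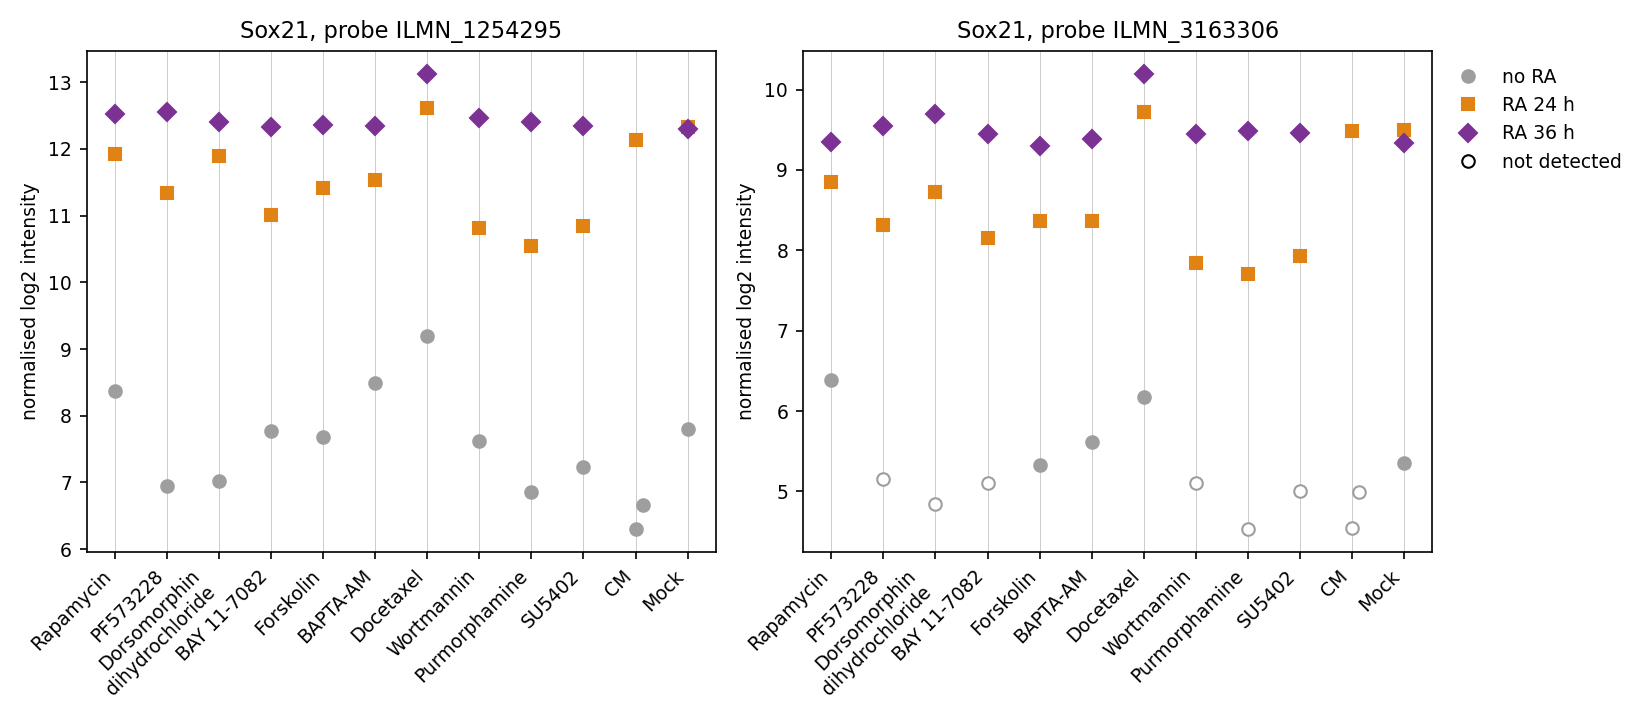
Normalised log2 intensity of the brightest probes of Sox21 (left ILMN_1254295, right ILMN_3163306) on each array, by treatment and schedule, with open points where the probe was not detected. Docetaxel is highest at 24 h and at 36 h on both probes, and Purmorphamine, at 10.55 on the left probe, is lowest at 24 h.

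The same Docetaxel arrays had the highest Sox9 and lowest Sox10 levels with RA. Sox9 had 7.27 without RA, 9.0 at 24 h and 8.43 at 36 h with Docetaxel, against 6.60, 7.89 and 8.09 with Mock, a change of 0.71 ± 0.249 (interval 0.19 to 1.22, adjusted p = 0.359, limma). Its second probe changed by 0.45 ± 0.178 (adjusted p = 0.434). Sox10 had 5.99 at 24 h and 6.38 at 36 h with Docetaxel, against 7.10 and 6.89 with Mock, and was below detection without RA in both. Its fitted change was -0.61 ± 0.211 (interval -1.04 to -0.17, adjusted p = 0.356), with -0.36 without the RA 24 h arrays and -0.81 without the no RA arrays. With Rapamycin the changes were 0.66 ± 0.249 for Sox9 (adjusted p = 0.609) and -0.51 ± 0.211 for Sox10 (adjusted p = 0.677). None of these changes passed the test.

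Purmorphamine gave the lowest Sox21 mean over the 3 schedules. Its arrays stood at 6.85 without RA, 10.55 at 24 h and 12.40 at 36 h, a change from Mock of -0.88 ± 0.387 (interval -1.67 to -0.08, adjusted p = 0.665, limma). That change was -0.42 without the RA 24 h arrays and -1.37 without the RA 36 h arrays. At 36 h Purmorphamine was within the other compounds. Ordered by mean over the schedules, Sox21 was highest with Docetaxel (11.65), then Rapamycin (10.94), Mock (10.81) and BAPTA-AM (10.79), and lowest with SU5402 (10.14) and Purmorphamine (9.93). Below Docetaxel, neighbours in that order differed by less than the SE of 0.387.

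For the remaining genes the largest changes from Mock were small. Sox1 ranged from -0.32 ± 0.238 with BAY 11-7082 (adjusted p = 0.999) to 0.35 ± 0.238 with Wortmannin (0.765), and Sox3 from -0.47 ± 0.249 with Dorsomorphin dihydrochloride (0.955) to 0.25 ± 0.249 with BAPTA-AM (0.902, all limma). Sox4 ranged from -0.15 ± 0.154 with BAY 11-7082 (0.999) to 0.06 ± 0.154 with Rapamycin (0.953), and Sox11 from -0.06 ± 0.116 with SU5402 (0.972) to 0.17 ± 0.116 with Docetaxel (0.685, all limma). In the fit over the schedules, against the shared Mock arrays, all 10 compounds lay above Mock for Sox9. The smallest change was 0.10 ± 0.249 with Purmorphamine (0.951). For Sox10 all lay below Mock, the smallest being -0.05 ± 0.211 with BAY 11-7082 (0.999, both limma). This did not hold in each schedule. At 36 h the compounds lay on both sides of Mock, from -0.29 with BAPTA-AM to 0.34 with Docetaxel for Sox9. For Sox10 they went from -0.51 with Docetaxel to 0.47 with Forskolin. Without RA, the compounds also lay on both sides of Mock for Sox9, from -0.39 with Purmorphamine to 1.2 with Rapamycin, and Sox10 was below detection. Only at 24 h did all lie on 1 side of the 1 Mock array (7.89 for Sox9, 7.10 for Sox10).

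CM against Mock, over the RA 24 h and no RA schedules, gave 0 of 7 genes past the threshold (0.871% of all probes were higher and 1.76% lower, 2.63% in either direction, limma). At an unadjusted p under 0.05, where the share of all probes was not counted, 1 of the 13 probes differed. That probe was of Sox21, which had 6.30 and 6.66 with CM, against 7.80 with Mock, without RA, and 12.14 with CM, against 12.33 with Mock, at 24 h. The change was -0.83 ± 0.393 (interval -1.63 to -0.02, adjusted p = 0.298). Without RA, both CM arrays were below all 10 compound arrays and Mock on the leading Sox21 probe. On the second probe, ILMN_3163306, they were not: their mean was 4.77 and Purmorphamine stood at 4.53, both below the detection limit.

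**Figure D4:**
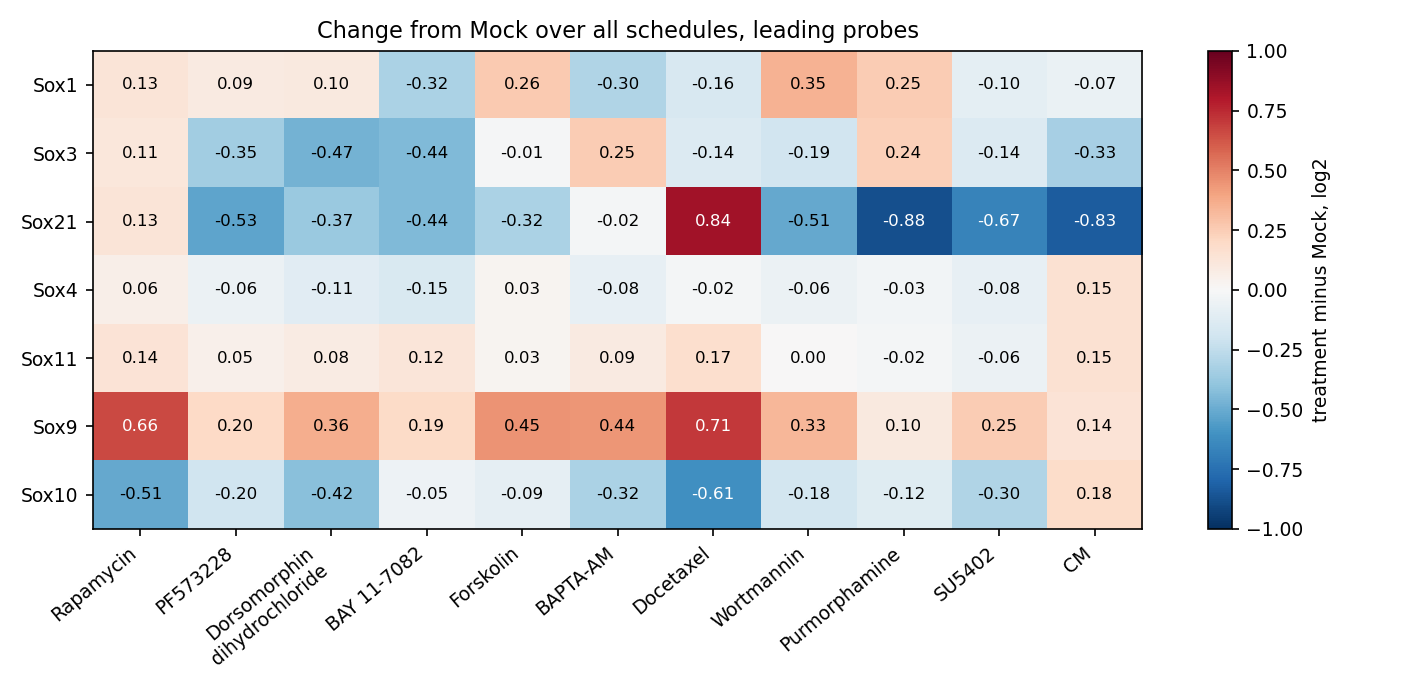
Change of the leading probe of each Sox gene from Mock, in log2 units over all schedules, for 10 compounds and CM. The extremes are Sox21, at 0.84 with Docetaxel and -0.88 with Purmorphamine, and none of the changes passed the test.

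Whether a compound changed a Sox gene differently with and without RA was tested as an interaction. None of 70 combinations of 7 genes and 10 compounds passed (0.00417% of all probes for Forskolin and 0% for each other compound). At an unadjusted p under 0.05, 2 of the 13 probes differed for Rapamycin, 1 for BAPTA-AM, 1 for SU5402 and 0 for each other compound (limma). The share of all probes at that p was not counted, so these counts too are a description. For Sox21 the interaction was -0.84 ± 0.608 with Docetaxel (interval -2.14 to 0.45, adjusted p = 0.734) and 0.11 ± 0.608 with Purmorphamine (interval -1.18 to 1.41, adjusted p = 0.997). The intervals of Sox21 are wide enough to hold changes of more than 1 log2 unit.

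Of 13 other Sox genes, 8 were tested, of which 5 rose and 0 fell after 36 h of RA (26% and 29% of all tested probes), with a median change of 0.82, or 0.24 with undetected groups at their bound, beside -0.03 for all probes. Of the 5, Sox5, Sox6 and Sox7 were detected on 0 of the 11 arrays without RA and passed the filter through RA arrays. The count and the p-values of these genes are therefore a description. Sox7, an endoderm and endothelial factor, was at least 2.50-fold higher (adjusted p = 3.83e-12, limma), Sox2, the pluripotency and neural SoxB1 factor, rose by 1.18 ± 0.166 (7.92e-07), and Sox5, a partner of Sox9 in cartilage, was at least 1.36-fold higher (3.14e-08). With RA for 24 h Sox2 did not pass (-0.31 ± 0.159, 0.0966).

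Among 17 tested neural progenitor genes, 10 rose and 5 fell after 36 h of RA (26% and 29% of all tested probes), with a median of 0.30, also with bounds. Of the 10, Pax6, Hes5, Zic1 and Cdh2 were detected on 0 of the 11 arrays without RA and passed the filter through RA arrays. Zic1, a dorsal neural tube factor, was at least 5.24-fold higher, Cdh2, the neural cadherin, at least 2.60-fold, and Irx3, a neural tube homeobox gene, rose by 2.35 ± 0.3 (adjusted p = 1.62e-07, limma). The glutamate transporter Slc1a3 fell by 2.97 on the log2 scale, Nkx1-2, a gene of the caudal epiblast, fell by 2.90 and Zic2 fell by 2.66. The Notch receptor gene Notch1 was higher with RA for 36 h (0.30 ± 0.123, adjusted p = 0.0382) and lower for 24 h (-0.66 ± 0.118, adjusted p = 2.59e-05, both limma).

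Among 14 tested genes of a neuronal differentiation list, 2 were higher and 5 lower after 36 h of RA (26% and 29% of all tested probes), with a median of -0.17, also with bounds. The smallest of the 5 falls was that of Tead2 (-0.28 ± 0.0721), which is not particular to neurons. Both higher genes were detected on 0 of the 11 arrays without RA and passed the filter through RA arrays. Ebf3 was at least 1.10-fold and the proneural gene Neurog2 at least 1.01-fold higher, both near the detection limit. The neuronal RNA-binding gene Elavl3 fell by 3.35 on the log2 scale, Map2, of the dendritic cytoskeleton, fell by 1.75 and the intermediate filament gene Ina fell by 1.47.

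Among 16 tested neural crest genes, 9 were higher and 2 lower after 36 h of RA (26% and 29% of all tested probes), with a median of 0.40, or 0 with bounds. Of the 9, Snai2, Dct and Ret were detected on 0 of the 11 arrays without RA and passed the filter through RA arrays, so the count is a description. The endothelin receptor gene Ednrb rose by 7.18 ± 0.216 (adjusted p = 2.65e-20, limma), the RA-binding protein gene Crabp1 by 3.93 ± 0.333 (7.44e-11) and Msx1 by 1.94 ± 0.247 (1.47e-07). Without RA they were detected on 4, 7 and 8 of 11 arrays, so these sizes rest in part on undetected levels. The receptor gene Kit fell by 1.06 and Snai1 by 0.49 on the log2 scale. Twist1 was higher for 36 h (0.32 ± 0.123, adjusted p = 0.0292) and lower for 24 h (-0.32 ± 0.118, adjusted p = 0.0208, both limma). Other crest genes did not pass the filter on dim probes: Pax3, Pax7 and Tyr were detected on 0 arrays, Erbb3 on 1 and Mitf on 2 of 36.

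Among 11 tested genes that Sox9 is known to activate in cartilage, 5 were higher and 4 lower after 36 h of RA (26% and 29% of all tested probes), with a median of 0.02, or 0 with bounds. Of the 5, Hapln1, Sox5 and Sox6 were detected on 0 of the 11 arrays without RA and passed the filter through RA arrays. The cartilage collagen gene Col2a1 rose by 3.76 ± 0.126 (adjusted p = 2.18e-19, limma) and Ctgf by 0.89 ± 0.0981 (1.14e-08). The collagen genes Col9a3, Col9a2 and Col11a2 fell by 0.92, 0.68 and 0.58 on the log2 scale.

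For the 3 members whose schedule means spanned at least 1 log2 unit, the genes nearest in centred level over all 36 arrays were found among 12366 genes, by root mean square difference. Nearest to Sox21 were Lama1 (0.46), Tshz1 (0.509) and Serpinf1 (0.561), beside a spread of Sox21 about its own mean of 2.25. Nearest to Sox10 were Pdzrn3 (0.302), Ifitm1 (0.31) and Fgf10 (0.32), beside 1.03. Nearest to Sox9 were Eml1 (0.291), Dtx4 (0.337) and Slc22a23 (0.341), beside 0.793. The arrays share schedules and slides, which shapes any such likeness.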

How the data were processed

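Mouse EpiSC RNA was measured on 36 Illumina bead arrays. The deposited raw table holds the authors' summarised probe intensity, not normalised, with a detection p-value per probe, both named in the file headers. The authors' series values are on a log2 scale, made with lumi per the submitters' processing notes (version, transform and background step not given in the sources used here), and served as an alternative. Groups came from the sample titles, and slides from the array positions in the labels. Intensities were background-corrected with normexp on negative probes inferred from detection p-values, quantile normalised and logged (neqc in limma 3.58.1, R 4.3.3, offset 16). The dim-probe filter asked for a detection p below 0.05 on 3 or more arrays. limma fitted schedule plus treatment (22 residual degrees of freedom), schedule by class of treatment (28) and treatment by RA (11), with Benjamini-Hochberg adjustment over 23999 probes and a threshold of 0.05. The number of arrays limits the precision. Probes were named from GEO's platform annotation: 34885 had 1 symbol, 18 several and 10378 none. Alternatives were the authors' values, offset 50, cyclic loess, median scaling, stricter or no filter, 1 probe a gene, slide as a block and leaving out arrays. The fit was tested on simulated data. Named genes were all members, led by their brightest tested probe, with the compounds of largest rise and fall, up to 3 largest rises and falls of each list for RA 36 h, genes of opposite call at 24 h, and the 3 genes of most like profile. The members and lists were chosen with earlier results of these data known.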

Additional observations from a re-analysis of the deposited data

Results flagged for a closer look

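Among the 10 compound arrays of a schedule, 39 groups (13 probes in 3 schedules) were searched for an array that stood apart, by the gap to its neighbour over the range of the group. Chance marks about 1 in 20 groups, and 4 were marked. On the RA 36 h arrays, Sox21 was highest with Docetaxel on both bright probes, at 13.13 (next 12.56, gap over range 0.716) on ILMN_1254295 and at 10.2 (next 9.7, 0.554) on ILMN_3163306. Sox4 was lowest with BAPTA-AM at 36 h, at 10.99 (next 11.18, 0.534). The dim Sox21 probe ILMN_2721489 was highest with Forskolin without RA, at 4.88 (next 4.6, 0.54), below detection. For Sox4, the difference of the compounds as a class from Mock differed by -0.84 between the schedules, RA 24 h minus RA 36 h (adjusted p = 0.0188, limma, interaction of schedule and class). It rests on 1 Mock array in each schedule, with their spread taken from the other arrays, and did not pass with median scaling.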

How the results depend on the processing

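The number of the 7 Sox genes that passed for RA against no RA (6 in both schedules, all higher) went up to 7, with Sox3 lower, for RA 36 h. It ranged from 5 to 6 for RA 24 h. Within 1 slide fewer passed for RA 36 h, but that fit has 1 array without RA, so its count is not given. The 5 for RA 24 h against no RA came with the stricter filter, which dropped Sox1, so that gene was not tested there. For RA 24 h against RA 36 h, where 6 of 7 passed, 3 passed with median scaling and 2 with slide as a random block (correlation within a slide 0.141). Leaving out each treatment in turn gave between 3 and 6, with 3 without Rapamycin, PF573228 or Wortmannin. Sox10 there also missed the threshold in the authors' values, with offset 50, cyclic loess, median scaling and no filter. For compounds against Mock at RA 24 h, and for its difference from RA 36 h, 0 genes passed with median scaling in place of 1. For compounds against CM at RA 24 h, 2 passed in the authors' values in place of 1. Under the compound comparisons, 0 of 7 passed in every setting tried. Of 1031 values of single genes under alternatives, 982 kept their direction and side of the threshold, 41 no longer passed, 8 newly passed (Sox3 with RA for 36 h among them, lower at -0.34 with median scaling), and none of the called values turned direction. Sox3 with RA for 36 h was also called lower without the Docetaxel arrays. The cause of these changes was not tested. Sox1, Sox10 and the dim probes lie near the detection limit, so their size depends on offset and scale: with offset 50, Sox10 rose by 1.39 and Sox1 by 0.25 for RA 36 h. The schedules were matched by treatment, which is a term of the fit and so a block already. By replicate number, no paired analysis was possible because the labels number the CM arrays without RA alone.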
